A study of Caenorhabditis elegans and Caenorhabditis briggsae
Caenorhabditis elegans with 146 samples.

Results

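The DNA replication licensing genes described here are mcm-2, mcm-3, mcm-5, mcm-6, mcm-7, orc-2, cdc-6, cdt-1 and pcn-1 of Caenorhabditis elegans. They were taken by gene name, and all 9 were found among the 20411 genes of the expression table. The rule uses no measured value, although the list was drawn up with earlier results of these data known. mcm-2 (WBGene00003154) and orc-2 (WBGene00003882) lie on chromosome II, mcm-3 (WBGene00003155) and mcm-7 (WBGene00003159) on V, mcm-5 (WBGene00003157) and mcm-6 (WBGene00003158) on III, cdc-6 (WBGene00000382) and cdt-1 (WBGene00000413) on I, and pcn-1 (WBGene00003955) on IV, so no member is X-linked.

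Licensing is the loading of the replicative helicase onto origins before S phase. The origin recognition complex, of which ORC-2 is a subunit, recruits the loaders CDC-6 and CDT-1, and these load the ring of MCM proteins. PCN-1 is the worm PCNA, the sliding clamp that holds the polymerases on DNA once replication has begun. Early C. elegans embryos run through rapid cell divisions on RNA and protein supplied by the mother, most embryonic cell divisions are over when elongation starts at the comma stage, and larvae keep a small set of dividing somatic blast cells and a growing germline. In C. elegans the CUL-4 ubiquitin ligase removes CDT-1 during S phase. SET-1 is the worm counterpart of the human enzyme that adds the first methyl group to a lysine of histone H4, which in human cells is removed through PCNA and the same ligase.

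The series is a study of X chromosome dosage compensation, and mRNA was sequenced from whole embryos or larvae, so that fewer dividing cells and less RNA per cell cannot be told apart. Values are FPKM, fragments mapped per kilobase of transcript and scaled to library size, in 79 libraries of 23 groups, and counts in 6 further libraries. set-1(tm1821) homozygous larvae (3 libraries) were picked as GFP-negative progeny of heterozygous mothers, so they can carry maternal product, and were set against GFP-positive set-1(tm1821) heterozygous larvae (3 libraries), which carry a balancer with bli-4(e937), let-?(q782) and qIs48. Both are L2 larvae by their labels and were fed for 24 hours, as were the L3 larvae of the other groups. The table's columns for the set-1 groups read L3, and those of the heterozygous group carry no zygosity and were matched because no other set-1 group was left. The dpy-27(y56) groups are early embryos (3 libraries) and L1 larvae (3), with early embryos labelled heterozygous (2). The strain is kept over a balancer with dpy-19(e1259), glp-1(q339) and qIs26 that encodes the rol-6(su1006) marker. How the embryos labelled heterozygous were collected is not described, so the label need not hold for each embryo. The dpy-27 mutant embryos came from mothers without the roller phenotype and so lacked maternal and zygotic dpy-27. dpy-21(e428) was sampled as early embryos (3), mixed embryos (4) and L3 larvae (4), and set-4(n4600) as mixed embryos (4) and L3 larvae (4). RNAi groups are N2 worms fed dpy-27 double-stranded RNA as mixed embryos (4) and L3 larvae (4), against worms fed empty vector as mixed embryos (6) and L3 larvae (4). The stage groups are wild-type N2 hermaphrodites and the fog-2(oz40) strain, whose cultures hold both sexes. Both were sampled at the early embryo, comma embryo (4 hours after isolation), L1 (6 hours of feeding) and L3 (24 hours) stages, with 3 libraries each. A second collection holds 4 N2 L3 libraries. set-4(n4600) and N2 L1 larvae with C. briggsae worms added as a spike-in have 3 libraries each. Each library was made from pooled worms.

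Several libraries needed a remark before the results. N2 L1 replicate 3 and fog-2 L1 replicate 1 held the same value for all 20376 genes listed in both, so neither was used in the tests, which left 2 libraries for each of these groups. The library labelled dpy-21 mixed embryo replicate 3 held 0.223 FPKM of set-4, and the library labelled set-4 mixed embryo replicate 2 held 52.6, whereas the other set-4 mixed embryo libraries held 0.0430, 0.138 and 0.0534 and the other dpy-21 mixed embryo libraries 62.2, 32.7 and 44.4. Both labels are therefore at odds with set-4. The 4 set-4 L3 libraries held 0.422, 0.895, 0.00 and 0.0965 FPKM of set-4, against 8.29, 11.2, 9.88 and 7.96 in the second N2 L3 collection. set-1 itself was at 21.8, 24.9 and 20.3 FPKM in homozygous larvae and 25.5, 26.4 and 24.2 in heterozygous larvae, with a log2 ratio of -0.13 ± 0.12 and an adjusted p of 0.627 by limma, so gene-level set-1 RNA did not separate these groups and gives no check of their labels. dpy-27 RNA was lower in every dpy-27 RNAi mixed embryo library, at 26.0, 27.9, 36.9 and 36.9 FPKM, than in the vector libraries, where the lowest held 64.9. One dpy-27 RNAi L3 library, replicate 1, held 115 FPKM of dpy-27, and the other 3 held 15.8, 15.7 and 19.9, against 26.0, 18.5, 17.1 and 18.5 in vector L3 larvae, so the knockdown is not visible in L3 RNA. At the protein level the paper reports DPY-27 knockdown on western blots in both embryos and L3 larvae, weaker in L3.

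All 9 genes were most abundant in early embryos and fell steeply by the comma stage. In N2 hermaphrodites mcm-2, a helicase subunit, was at 34.8, 25.3 and 10.3 FPKM in comma embryos against 618, 565 and 581 in early embryos. The 2 sets of 3 libraries were far apart, and the log2 ratio was -4.84 ± 0.35 (SE, adjusted p = 7.57e-06, limma), with a mean 25.1 times lower in comma embryos. pcn-1, the clamp gene and the most abundant of the 9, was at 214, 158 and 52.1 FPKM in comma embryos against 2500.3, 2567 and 2356 in early embryos, a log2 ratio of -4.38 ± 0.41 (adjusted p = 2.80e-05). cdt-1, the loader that is removed in S phase, was at 28.1, 28.2 and 11.7 FPKM in comma embryos against 137, 138 and 141 in early embryos, with a log2 ratio of -2.74 ± 0.28 (adjusted p = 4.23e-05). Groups did not overlap for any of the 9 genes, as for 86.9% of all genes tested (39.4% were called lower), and comma replicate 3 was the lowest comma library for each of them.

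The size of the fall varied among the members. Mean FPKM in N2 comma embryos was lower than in early embryos by a factor of 19.7 for mcm-3, 19.5 for mcm-6, 11.3 for mcm-5, 9.93 for mcm-7 and 17.5 for pcn-1. The factors were 4.47 for orc-2, the origin-binding subunit, 5.05 for cdc-6, a loader, and 6.11 for cdt-1. Whether the falls differ between genes was not tested. Each of the 9 genes passed the test in the lower direction in N2, where 39.4% of the 11530 genes tested did, and the median log2 ratio of the members was -3.67 against 0.23 over all genes tested.

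The mixed sex series gave the same direction. All 9 genes fell between the early and comma stages in fog-2 embryos, against 38.2% of 11243 genes, with a median log2 ratio of -2.92 against 0.16 over all genes. mcm-2 was at 17.7, 27.1 and 31.2 FPKM in fog-2 comma embryos and 441, 419 and 551 in fog-2 early embryos, and orc-2 at 25.8, 28.4 and 27.6 in comma embryos and 84.7, 85.8 and 73.5 in early embryos. The log2 ratio was -4.23 ± 0.22 for mcm-2 and -1.57 ± 0.09 for orc-2 (adjusted p = 2.48e-06 and 4.36e-06). These fog-2 groups share no library with the N2 groups.

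**Figure D1:**
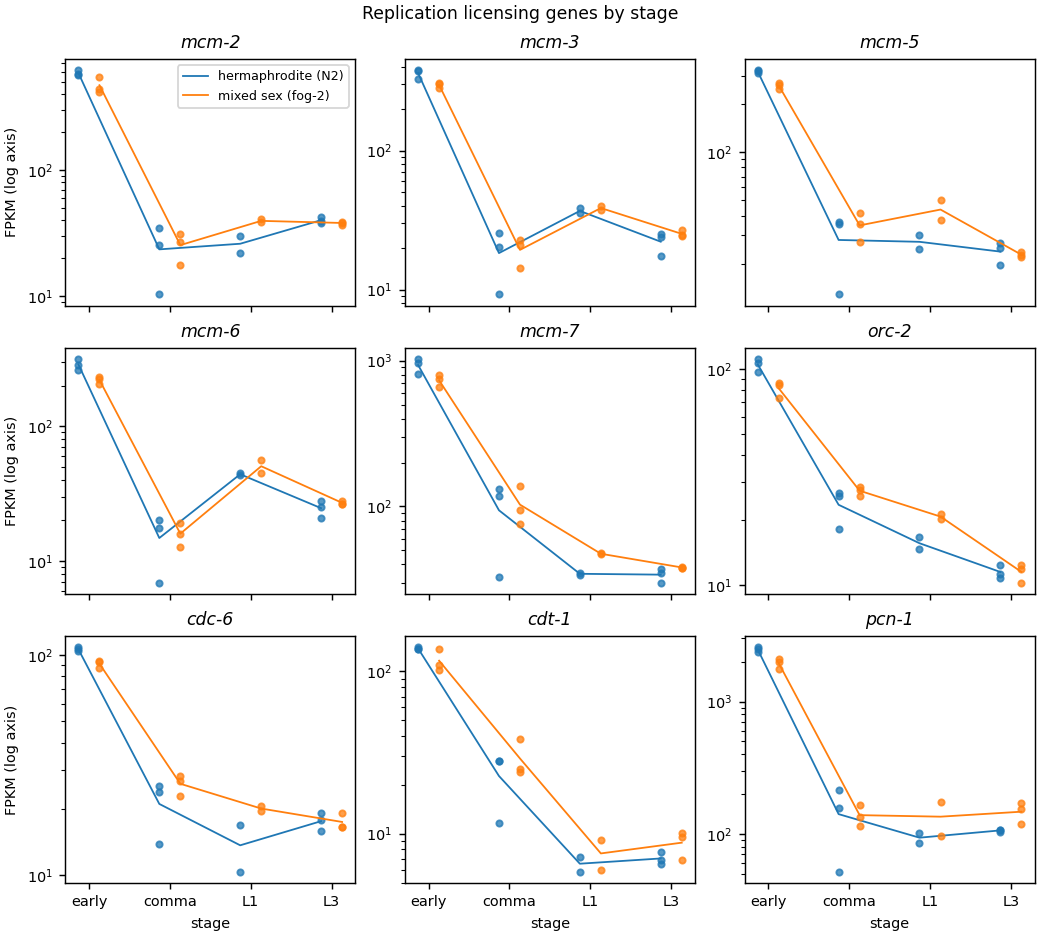
FPKM (vertical log axis, range set per gene) of the 9 licensing genes at 4 stages (horizontal axis, early embryo, comma embryo, L1 and L3) in hermaphrodite (N2) and mixed sex (fog-2) worms; points are libraries and lines join the means. Every early embryo point lies above every later point of its gene, and mcm-3 and mcm-6 are lowest at the comma stage, whereas cdt-1 and mcm-7 are lower in larvae than in comma embryos.

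After the comma stage the genes no longer moved together. mcm-6 was at 44.7 and 43.2 FPKM in N2 L1 larvae against 19.9, 17.5 and 6.84 in comma embryos, and rose by a log2 ratio of 1.78 ± 0.46 (adjusted p = 0.0237, limma, 2 against 3 libraries). cdt-1 was at 7.22 and 5.85 FPKM in L1 larvae against 28.1, 28.2 and 11.7 in comma embryos, and fell by a log2 ratio of -1.61 ± 0.43 (adjusted p = 0.0271). These were the only members past the threshold in N2, 1 in each direction, where 25.8% of 13852 genes were higher and 24.4% lower, so the share of members is below that of all genes. The comma group was widened by its replicate 3. Without it 6 members passed (2 higher, 4 lower), without comma replicate 1 or 2 only mcm-6 did, and without either L1 library none did.

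In fog-2 worms 3 members were higher in L1 larvae than in comma embryos, against 32.5% of 12884 genes, and 2 were lower, against 30% of genes. mcm-6 was at 44.7 and 56.1 FPKM in fog-2 L1 larvae and 12.7, 19.2 and 15.8 in comma embryos (log2 ratio 1.88 ± 0.22, adjusted p = 0.00108), and mcm-3 at 37.5 and 39.8 in L1 larvae and 14.3, 22.9 and 20.8 in comma embryos (1.23 ± 0.24, adjusted p = 0.00679). mcm-2 rose by 0.88 ± 0.28 (adjusted p = 0.0342). The fall of cdt-1 was -1.72 ± 0.29 (adjusted p = 0.00362) and that of mcm-7 -0.87 ± 0.26 (adjusted p = 0.0292), with mcm-7 at 47.1 and 47.7 FPKM in L1 larvae and 76.3, 139 and 93.8 in comma embryos. With no filter on low values, mcm-3, mcm-6 and cdt-1 were called, without fog-2 L1 replicate 2 the count was 3 and without fog-2 L1 replicate 3 only 2.

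Between L1 and L3 a few members passed the test in each strain. The libraries of the stages did not overlap for 5 of 9 members in N2, against 60.1% of all genes tested, and for 6 of 9 in fog-2, against 64.6%. In N2, mcm-2 was at 42.5, 39.4 and 38.0 FPKM in L3 larvae against 22.0 and 30.0 in L1 larvae and rose by 0.87 ± 0.18 on the log2 scale (adjusted p = 0.0235, limma), where 16.1% of 13675 genes were higher. mcm-6 was at 24.9, 27.97 and 20.9 FPKM in L3 larvae against 44.7 and 43.2 in L1 larvae, with a log2 ratio of -0.61 ± 0.14 (adjusted p = 0.0319), where 13.7% of genes were lower. In fog-2 worms mcm-6 (-0.57 ± 0.14, adjusted p = 0.0314) and mcm-5 (-0.60 ± 0.15, adjusted p = 0.032) were lower in L3 than in L1 larvae, where 13.2% of 13018 genes were lower. Both calls in each strain were lost without any one of the L3 libraries and in a fit over all groups, and 1 was left in N2 without L1 replicate 2. Scaling moved all genes by 0.24 (N2) and 0.33 (fog-2) on the log2 scale here, and on FPKM as deposited 3 and 4 members were called.

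Marker genes of other tissues moved across the same stages. The summed FPKM of 10 maternal early embryo genes, such as pos-1 and mex-5, was 56.0 to 179.8 in N2 comma embryos against 3829.6 to 5615 in early embryos, and all 10 fell. The germline list (20 genes, such as glp-1, gld-1 and pgl-1) summed to 153 to 198 FPKM in comma embryos and 960.2 to 1410.0 in early embryos, with 19 lower, and 8 of 10 genes of differentiated soma, such as the muscle myosin gene unc-54, were higher. Of all 11530 genes tested between these stages 5222 were higher and 4545 lower. Between L1 and L3 the germline list summed to 321 to 393 FPKM in N2 L3 larvae against 99.2 to 112 in L1 larvae, with 12 of 20 genes higher and none lower. The part that cell composition has in the members' changes was not tested.

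The other replication genes followed the embryonic fall. Of 17 further licensing and firing genes found in the table, 16 were lower and none higher in N2 comma than early embryos, with a median log2 ratio of -2.98. The exception was psf-1, a subunit of the GINS complex, at 227 ± 36.0 FPKM in comma embryos and 266 ± 28.7 in early embryos (log2 ratio -0.26 ± 0.14, adjusted p = 0.103, limma), singled out after its values were seen. All 22 fork and DNA synthesis genes fell, with a median of -3.07, and all 4 genes of the CUL-4 ligase list did. The largest falls were those of dut-1, which hydrolyses dUTP (-4.72 ± 0.38), pri-2, a primase subunit (-3.70 ± 0.37), and rnr-2, a ribonucleotide reductase subunit (-3.69 ± 0.37). From comma embryos to L1 larvae none of the 17 rose and 4 fell, a share near that of all genes (24.4% lower), the largest being gmn-1, the geminin gene whose product restrains CDT-1 (-2.14 ± 0.34), and psf-1 (-1.97 ± 0.23). None of the 22 fork genes was called and 1 of 4 ligase genes fell, rbx-1 (-1.91 ± 0.45). From L1 to L3 4 of the 17 rose, where 16.1% of all genes did, and none fell, led by orc-3, an origin recognition subunit listed as Y119D3B.11 (1.49 ± 0.29), mcm-10, an initiation factor listed as Y47D3A.28 (1.43 ± 0.34) and cdk-2, a kinase of S phase entry (1.32 ± 0.28), whereas the fork list had 1 gene higher and 2 lower, which were chaf-1, a chromatin assembly subunit listed as T06D10.2 (-1.18 ± 0.25), and dut-1 (-0.50 ± 0.13).

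No licensing gene differed between the set-1 groups beyond the spread of the libraries. mcm-2 was at 32.7, 25.2 and 24.0 FPKM in homozygous larvae and 32.5, 25.4 and 23.4 in heterozygous larvae, with 1 high library in each group. The log2 ratio was 0.07 ± 0.18 (95% interval -0.36 to 0.49, adjusted p = 0.885, limma). cdt-1 was at 6.02, 6.08 and 5.74 FPKM in homozygous larvae and 8.63, 5.84 and 5.52 in heterozygous larvae, a log2 ratio of -0.08 ± 0.19 (interval -0.54 to 0.38). Heterozygous replicate 1 was the highest library of the 6 for cdt-1, and the 3 homozygous libraries lay close together. This heterozygous library was the highest of its group for all 9 genes, and leaving it out left the count of called members at 0.

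pcn-1 was at 76.3, 82.8 and 76.2 FPKM in homozygous larvae and 84.2, 68.5 and 70.6 in heterozygous larvae (0.14 ± 0.12, interval -0.16 to 0.43), and mcm-6 at 23.1, 23.5 and 21.6 in homozygous larvae and 25.1, 18.8 and 17.1 in heterozygous larvae (0.23 ± 0.16, interval -0.15 to 0.61). That of mcm-6 was the largest ratio of the 9. mcm-7 was at 28.2, 21.2 and 23.2 FPKM in homozygous larvae and 28.9, 18.8 and 23.1 in heterozygous larvae, and orc-2 at 10.8, 12.3 and 10.3 in homozygous larvae and 12.3, 11.1 and 10.7 in heterozygous larvae. The groups overlapped for all 9 genes, while they did not for 24.7% of all 12634 genes tested.

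The means of the remaining members were 17.6 ± 1.86 FPKM in homozygous and 16.9 ± 3.52 in heterozygous larvae for mcm-3, 15.0 ± 2.44 in homozygous and 16.1 ± 3.69 in heterozygous larvae for mcm-5, and 16.4 ± 0.931 in homozygous and 18.1 ± 3.20 in heterozygous larvae for cdc-6 (SD, n = 3 each). No member passed the test, where 0.0158% of 12634 genes did (2 genes in either direction). At an unadjusted p under 0.05 (limma) 2123 of the 12634 genes passed. Adjusted p-values ran from 0.511 to 0.956, and 6 log2 ratios were above 0 and 3 below. The 9 intervals lay between -0.54 and 0.61 on the log2 scale, so changes larger than that are outside every interval, while smaller ones were not resolved with 3 libraries a group. None of the 17 licensing and firing, 22 fork or 4 ligase genes was called either. The germline list summed to 248 to 273 FPKM in homozygous and 233 to 277 in heterozygous larvae, with no gene of it called, and the differentiated soma list to 3365 to 3739.9 in homozygous and 2778 to 3469.7 in heterozygous larvae.

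**Figure D2:**
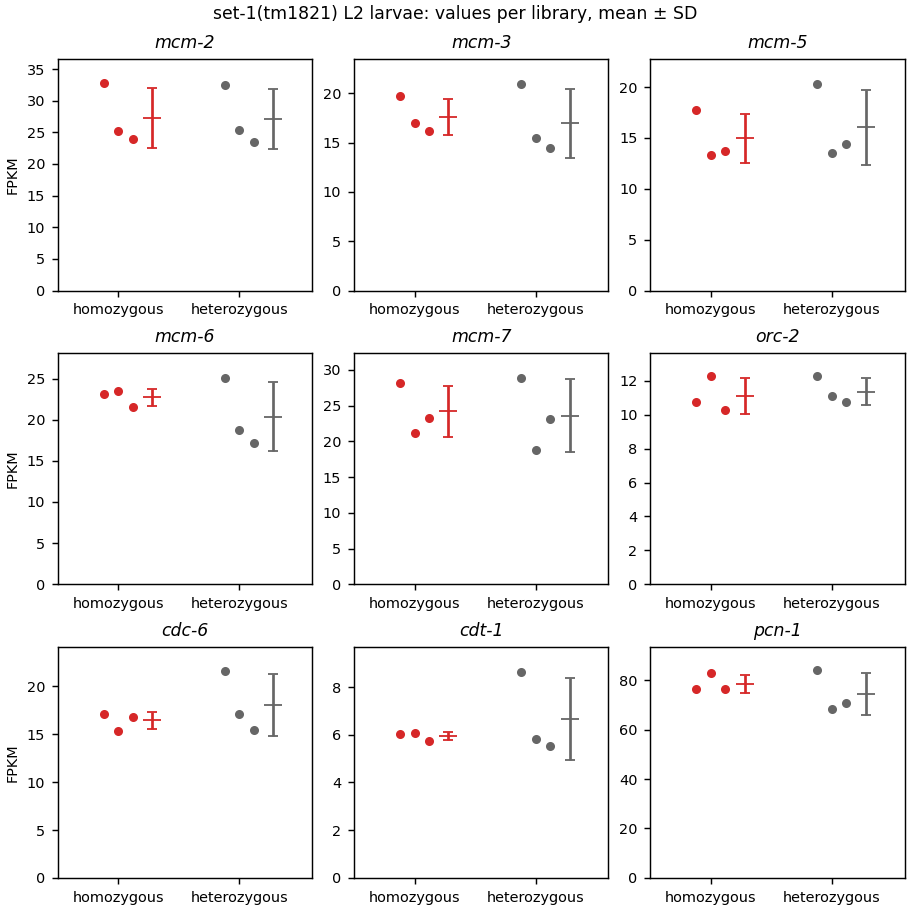
FPKM (vertical axis from 0) of the 9 licensing genes in set-1(tm1821) homozygous and heterozygous L2 larvae; points are the 3 libraries of each group and the bar beside them is the mean ± SD. The points of the 2 groups overlap in every panel.

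In early embryos 3 of the 9 genes were higher in N2 hermaphrodites than in mixed sex fog-2 cultures. The other 6 had ratios of the same sign. All hermaphrodite groups are N2 and all mixed sex groups are fog-2(oz40), so sex and strain cannot be told apart at any stage. orc-2 was at 107, 96.8 and 111 FPKM in N2 early embryos and 84.7, 85.8 and 73.5 in fog-2 early embryos, a log2 ratio of 0.47 ± 0.10 (adjusted p = 0.022, limma). mcm-6 was at 283, 262 and 317 in N2 and 206, 232 and 223 in fog-2 early embryos (0.48 ± 0.12, adjusted p = 0.0313), and mcm-5 at 324, 309.7 and 321 in N2 and 249, 271 and 260.1 in fog-2 early embryos (0.39 ± 0.10, adjusted p = 0.0373). These 3 passed the test as higher, where 6.98% of 9414 genes did. The other 6 had adjusted p-values of 0.0521 to 0.137 and ratios of 0.32 to 0.45, and the groups did not overlap for 8 of 9 genes, cdt-1 being the exception, and for 36.6% of all genes tested. The call depends on the scaling, which moved all genes by 0.10: on FPKM as deposited no member was called, with ratios of 0.22 to 0.38, and the count ran between 0 and 6 when single libraries were left out (0 without N2 replicate 1 or fog-2 replicate 1 or 2, 1 without N2 replicate 2, and 6 without fog-2 replicate 3).

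At later stages no member passed the test between hermaphrodite and mixed sex worms. None was called in comma embryos, where 0.0697% of 11473 genes were, in L1 larvae (0% of 13599) or in L3 larvae (0.016% of 12486). At an unadjusted p under 0.05, 1320 genes passed in comma embryos, 965 in L1 larvae and 1859 in L3 larvae. The median member ratio was -0.18 in comma embryos, -0.39 in L1 larvae and -0.15 in L3 larvae, and pcn-1 had the largest L3 difference, at 108, 103 and 108 FPKM in N2 and 118.5, 169.9 and 154 in fog-2 larvae (-0.46 ± 0.16, adjusted p = 0.277). Without fog-2 L3 replicate 1 pcn-1 was called, with a ratio of -0.61. The test of the difference between stages, the L3 ratio minus the early embryo ratio, was past the threshold and negative for 8 of 9 genes, where 6.97% of 12620 genes were. On FPKM as deposited only pcn-1 was past it. The same N2 early embryo libraries enter the stage, sex and mutant comparisons of early embryos.

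dpy-27(y56) early embryos, mutant in a condensin subunit of the dosage compensation complex, held less of all 9 transcripts than N2 early embryos. pcn-1 was at 1375, 1200.3 and 1252 FPKM in dpy-27 embryos against 2500.3, 2567 and 2356 in N2 embryos, a log2 ratio of -1.10 ± 0.14 (adjusted p = 0.000853, limma). mcm-7 was at 584, 505 and 567.6 in dpy-27 embryos against 1029.6, 965 and 808 in N2 embryos (-0.90 ± 0.14, adjusted p = 0.00183), and mcm-2 at 408, 321 and 271 in dpy-27 embryos against 618, 565 and 581 in N2 embryos (-0.98 ± 0.17, adjusted p = 0.00292). The smallest fall was that of cdt-1, at 128, 116 and 131 in dpy-27 embryos against 137, 138 and 141 in N2 embryos (-0.29 ± 0.10, adjusted p = 0.0498). The libraries of the 2 groups did not overlap for any member, nor for 57.5% of all genes tested.

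All 9 passed as lower, where 21.9% of 10612 genes did, with a median log2 ratio of -0.67 against -0.04 over all genes. The paper, using DESeq, reports no gene past its adjusted p cutoff in dpy-27(y56) early embryos. Why the results differ was not tested. Leaving out 1 library gave 6 to 8 calls, FPKM as deposited 7, and a fit over all groups 3 (mcm-2, mcm-7 and pcn-1). Markers moved with this comparison too. The maternal list summed to 2188 to 2857 FPKM in dpy-27 embryos and 3829.6 to 5615 in N2 embryos, with 8 of 10 genes lower, the germline list had 15 of 20 lower, and 6 of 10 differentiated soma genes were higher. The soma list holds the X-linked genes tnt-2, elt-2 and dpy-7. Of all 10612 genes tested 2793 were higher and 2324 lower. Of the other replication genes 11 of 17 licensing and firing, 15 of 22 fork and 2 of 4 ligase genes were lower as well, and none was higher. The part of the marker genes' tissues in the members' change was not tested.

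Against dpy-27(y56) early embryos labelled heterozygous no member was called, and neither was any other gene (0% of 10944, 297 genes at an unadjusted p under 0.05, limma). The heterozygous group has 2 libraries that lay apart, with cdt-1 at 150.3 and 69.4 FPKM and orc-2 at 82.9 and 38.6. pcn-1 was at 1375, 1200.3 and 1252 FPKM in dpy-27 embryos and 1477 and 1477 in heterozygous embryos, and 7 of 9 ratios were below 0, with intervals between -1.55 and 0.92. In dpy-27 L1 larvae no member was called either, where 0.332% of 13846 genes were (2139 genes at an unadjusted p under 0.05, limma). The groups overlapped for all 9 genes, while they did not for 34.7% of all genes tested. mcm-2 averaged 32.8 ± 6.04 FPKM in dpy-27 (SD, n = 3) and 26.0 ± 5.64 in N2 L1 larvae (n = 2).

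dpy-21(e428) early embryos, mutant in another dosage compensation gene, gave no called member against N2 early embryos, where 6.15% of 9474 genes were called. Their 3 libraries were far apart for some genes. mcm-6 was at 219.6, 159 and 373 FPKM in dpy-21 embryos and 283, 262 and 317 in N2 embryos (-0.01 ± 0.23, adjusted p = 0.969, limma), and cdt-1 at 87.1, 90.3 and 99.5 in dpy-21 and 137, 138 and 141 in N2 embryos (-0.32 ± 0.15, adjusted p = 0.178). Markers moved here too. Of 8 differentiated soma genes tested 1 was higher, tnt-2, an X-linked troponin T gene (4.56 ± 2.38 FPKM in dpy-21 and 1.17 ± 0.301 in N2 embryos, adjusted p = 0.0475, limma). Of these 8 genes elt-2 and dpy-7 are X-linked too, and the part of X linkage in their ratios was not tested. The median log2 ratio of these 8 was 1.62, while the summed level of the list was 407 to 582 FPKM in dpy-21 and 596 to 613 in N2 embryos, with unc-54 at 36.5 ± 33.2 FPKM in dpy-21 and 2.39 ± 0.545 in N2 embryos (adjusted p = 0.0671, singled out after its values were seen). The maternal list summed to 2011 to 3450.0 FPKM in dpy-21 and 3829.6 to 5615 in N2 embryos with 1 of 10 genes lower, nos-2 (74.2 ± 30.9 FPKM in dpy-21 and 182 ± 24.2 in N2 embryos, adjusted p = 0.0485), and no germline gene was called. The part of these tissues in the members' ratios was not tested. Without dpy-21 replicate 3 orc-2 alone was called, with a ratio of -0.52. In dpy-21 L3 larvae, set against the second N2 collection, none was called where 6.95% of 12385 genes were, and cdc-6 had the lowest p, at 11.4 ± 0.797 FPKM in dpy-21 and 13.7 ± 2.90 in N2 larvae (SD, n = 4 each, -0.31 ± 0.10, adjusted p = 0.118). The test of the difference between these stages called no member, where 11.5% of 12672 genes were called in either direction.

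**Figure D3:**
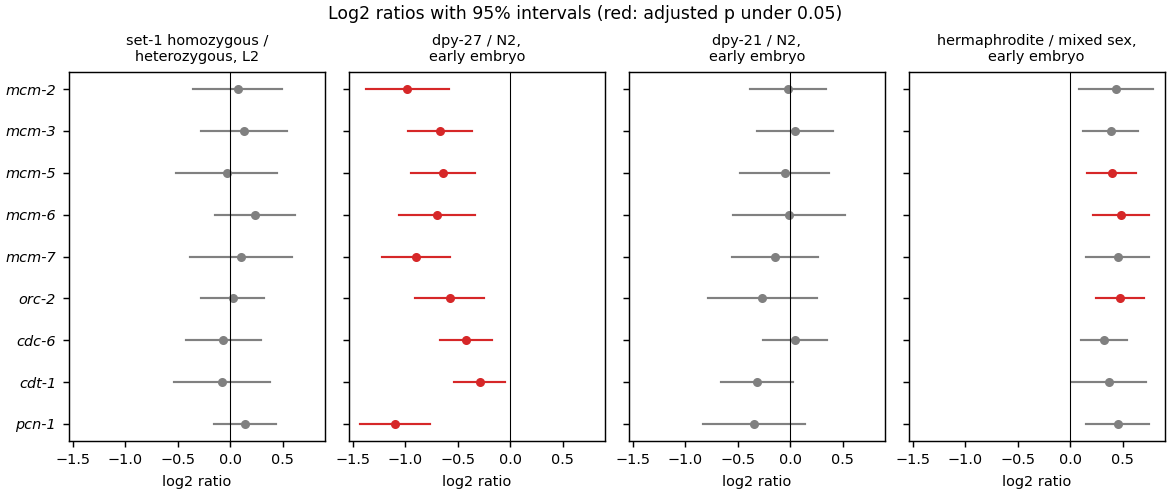
Log2 ratios (horizontal axis, points) with 95% intervals (lines) of the 9 licensing genes in 4 comparisons, red where the adjusted p was under 0.05. All 9 dpy-27 to N2 ratios are red and below 0, the hermaphrodite to mixed sex ratios are all above 0 with 3 red, and the set-1 and dpy-21 intervals all include 0.

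set-4(n4600) L3 larvae, which lack the enzyme that adds further methyl groups to the same histone residue, were set against the same N2 collection as dpy-21, and no member was called, where 0.00815% of 12264 genes were. mcm-7 was at 25.8, 26.9, 17.8 and 22.96 FPKM in set-4 larvae and 21.2, 19.4, 15.3 and 17.05 in N2 larvae (0.36 ± 0.17, interval -0.04 to 0.75). Ratios of the other MCM members were 0.26 to 0.31, while that of pcn-1 was 0.22 and those of orc-2, cdc-6 and cdt-1 were at or just below 0, the lowest being -0.03 for orc-2. Outside the 9 members, ratios were 0.34 for mcm-4, 0.22 for orc-1, 0.35 for orc-3, 0.34 for orc-4 and -0.33 for orc-5, none of them called. The groups overlapped for every member, and did not for 2.55% of all genes tested. Replicate numbers were taken to pair these libraries by a correlation rule, not by the labels, and replicate 2 (r = 0.273) did not match its own number best. Within these pairs set-4 was the higher in 4 of 4 for mcm-2, mcm-3, mcm-5, mcm-7 and pcn-1, in 3 for mcm-6 and in 2 for orc-2, cdc-6 and cdt-1. The share of all genes higher in 4 of 4 was not computed. With the pairs as a block the mcm-7 ratio was 0.36 ± 0.09 (interval 0.13 to 0.58, adjusted p = 0.34, limma). The adjusted p-values of the 9 members ran from 0.34 to 0.993. The germline list summed to 165 to 229 FPKM in set-4 larvae and 132 to 188 in N2 larvae with a median log2 ratio of 0.44 over its 20 genes, and the maternal list to 19.3 to 43.4 in set-4 and 15.0 to 28.2 in N2 larvae with 0.58 over the 8 of its genes tested, and no gene of either was called. The part of these tissues in the members' ratios was not tested. The first N2 L3 collection had higher levels than the second for all 9 genes, with mcm-2 at 40.0 ± 2.34 FPKM (n = 3) in the first and 21.6 ± 3.90 (n = 4) in the second, and pcn-1 at 106 ± 2.56 in the first and 70.5 ± 4.94 in the second. This difference between collections of 1 strain was not tested, and the germline list summed to 321 to 393 FPKM in the first and 132 to 188 in the second.

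Spike-in counts allow a comparison per worm, since C. briggsae worms were added in proportion before RNA was extracted. The libraries held 1533531 to 3215078 C. elegans counts and 129184 to 331898 C. briggsae counts. On this scale set-4 L1 larvae held less of the licensing transcripts than N2 L1 larvae. mcm-7 was at 135, 129 and 116 scaled counts in set-4 larvae and 293, 201 and 189 in N2 larvae, from raw counts of 125, 175 and 157 in set-4 and 151, 131 and 225 in N2 larvae. The log2 ratio was -0.83 ± 0.19 (adjusted p = 0.00383, edgeR quasi-likelihood test). cdt-1 was at 40.0, 40.5 and 43.4 in set-4 and 65.9, 63.0 and 81.4 in N2 larvae (-0.78 ± 0.24, adjusted p = 0.0194), and mcm-5 at 214, 184 and 177 in set-4 and 318, 286 and 285 in N2 larvae (-0.63 ± 0.16, adjusted p = 0.00856). The groups were apart for these 3 genes, and the share of all genes for which they were apart was not computed. For mcm-2 the groups overlapped, with set-4 replicate 1 at 189 scaled counts and N2 replicate 2 at 178.

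Of the 9 members 7 passed as lower, where 20.8% of 10080 genes did. The others were mcm-2 (-0.38 ± 0.18, adjusted p = 0.127) and orc-2 (-0.58 ± 0.22, adjusted p = 0.0538). The median member ratio was -0.59, and that of all genes was -0.24. Scaled to C. elegans counts instead, 2 members were called, mcm-5 (-0.41, adjusted p = 0.0224) and mcm-7 (-0.60, adjusted p = 0.02), the members' median was -0.38, and the share of all calls that were higher was 50.3% in place of 20.8%. Without set-4 replicate 2 or 3 only mcm-7 was called.

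**Figure D4:**
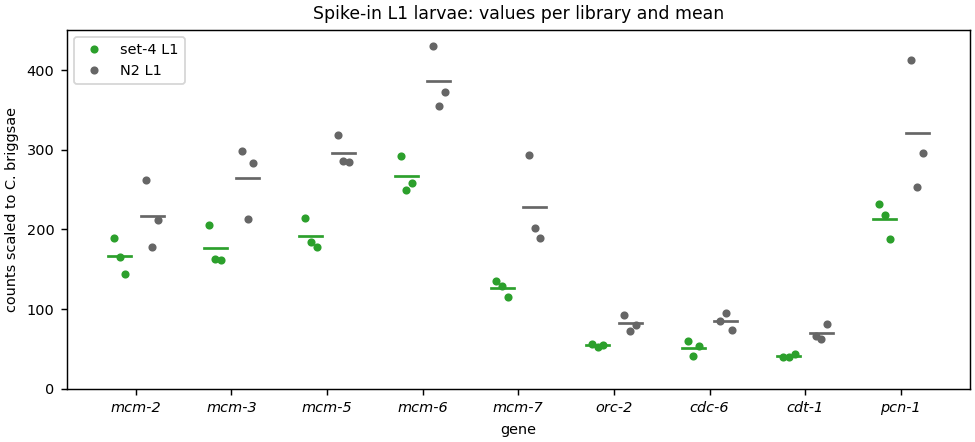
Counts scaled to the C. briggsae spike-in (vertical axis from 0) for the 9 licensing genes (horizontal axis) in set-4 and N2 L1 larvae, with points for the 3 libraries and a bar for the mean. The set-4 mean is below the N2 mean for every gene.

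Mixed embryos gave no call, and their libraries differed widely within groups. dpy-27 RNAi called no member in mixed embryos, where no gene was called (0% of 12318, 105 genes at an unadjusted p under 0.05, limma). mcm-2 was at 182, 90.4, 245 and 234 FPKM in dpy-27 RNAi embryos and 138, 85.4, 223, 229, 421 and 213 in the 6 vector libraries. The groups overlapped for all 9 genes, and did not for 0.422% of all genes tested. pcn-1 was at 874, 477, 1013 and 1308 FPKM in dpy-27 RNAi embryos and 783, 397, 754, 1036, 3242 and 1820.3 in vector embryos, whose replicate 5 lies above every N2 early embryo library. In L3 larvae dpy-27 RNAi called no member where 0.0318% of 12566 genes were called (1547 genes at an unadjusted p under 0.05, limma). Of the 9 ratios 8 were above 0, between -0.16 and 0.26 over all 9. Without dpy-27 RNAi L3 replicate 1 the count was also 0. The difference between the RNAi effects in L3 larvae and mixed embryos was past the threshold for no gene (0% of 13254, 164 genes at an unadjusted p under 0.05).

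dpy-21 and set-4 mixed embryos, set against each other, gave no call (0% of 12705, 23 genes at an unadjusted p under 0.05, limma), and none of the members was called without the 2 libraries at odds with their labels. pcn-1 was at 609, 1159, 371 and 729 FPKM in embryos labelled dpy-21 and 1897, 503, 449 and 518 in embryos labelled set-4. In vector embryos the members summed to 942 FPKM where the maternal list summed to 573 (replicate 2) and to 5409 where it summed to 4517 (replicate 5), and in set-4 embryos to 1033 beside 683 (replicate 4) and 2836 beside 1897 (replicate 1). pcn-1 made up much of the high sums, at 3242 FPKM in vector replicate 5 and 1897 in set-4 replicate 1, and in the set-4 library mcm-5 was the lowest of its group, at 55.1 FPKM. The mixture of embryo ages in each collection was not tested as a source of this spread.

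**Figure D5:**
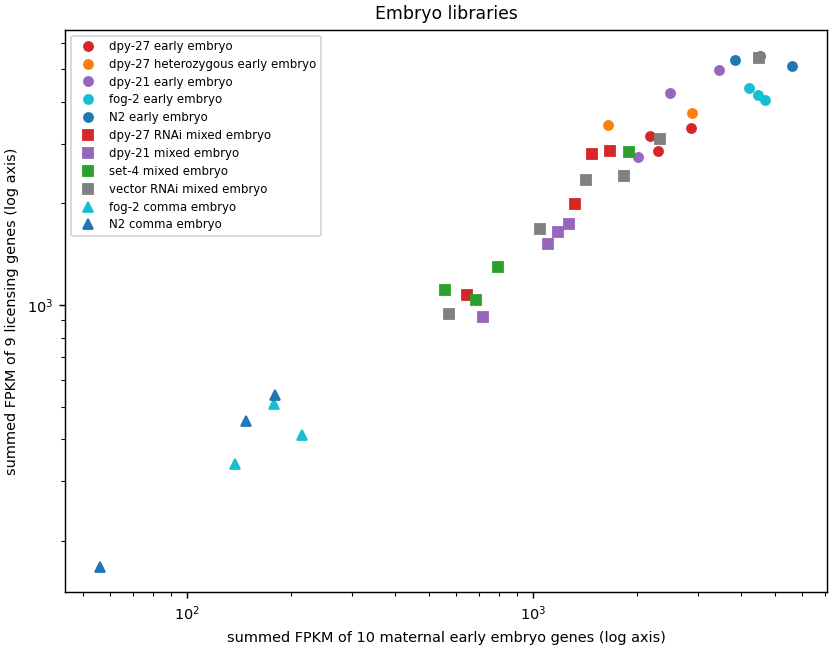
Summed FPKM of the 9 licensing genes (vertical log axis) against the summed FPKM of 10 maternal early embryo genes (horizontal log axis), 1 point per embryo library, with circles for early, squares for mixed and triangles for comma embryos and colours for the genotype or RNAi. Comma embryos lie at the lower left and early embryos at the upper right. Mixed embryos lie between or reach into the early embryos. Vector RNAi replicate 6 (3107 against 2328) is above dpy-27 early embryo replicate 2 (2853 against 2307) on both axes. Vector RNAi replicate 5 (5409 against 4517) lies beside N2 early embryo replicate 1 (5481 against 4536).

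Over the 23 group means the order of levels was much alike for all 9 genes. N2 early embryos ranked first for each gene. The early embryo groups took the first 5 places for 8 genes, and for pcn-1 vector RNAi mixed embryos, at 1339 ± 1047 FPKM, stood above dpy-27 early embryos, at 1276 ± 89.8, with overlapping spreads. The 4 mixed embryo groups came next, and their mean ± SD ranges overlapped for every gene. All comma embryo and larval groups followed. The lowest group was a comma embryo group for mcm-6 (14.8 ± 6.97 FPKM in N2), and an L3 group for the other 8, such as cdt-1 in vector RNAi L3 larvae (3.85 ± 0.971) and mcm-2 in the second N2 L3 collection (21.6 ± 3.90). The lowest group and the next overlapped within their SDs for every gene except cdc-6, where dpy-21 L3 larvae (11.4 ± 0.797) lay below set-4 L3 larvae (13.3 ± 1.02).

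Pairwise Pearson correlations of log2(FPKM + 0.1) over the 23 groups ran from 0.869 (mcm-6 with cdt-1) to 0.992 (mcm-7 with cdt-1), and mcm-3 with mcm-6 gave 0.99. They are a description: the groups share controls, and the contrast of early embryos with the rest weighs on all of them. Among the 5 other genes closest to the members' mean profile, of 13377 genes compared, were lig-1, the DNA ligase of the fork list (r = 0.995), nasp-2, a histone chaperone gene (0.994), F11E6.7 (0.994) and F33D11.9 (0.993). Of the members themselves mcm-5 lay closest to that profile (0.994, with itself in the mean) and mcm-6 farthest (0.96).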

How the data were processed

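mRNA was sequenced by the authors as stranded single-end libraries, mapped to C. elegans WS220 and summarised per gene as FPKM with Cufflinks. The submitters' processing notes list TopHat2 2.0.11, Cufflinks 2.2.0 and HTSeq 0.6.0. The deposited FPKM table keeps no read counts, so the depth of these libraries is unknown. For the spike-in libraries the authors deposited raw read counts per gene of both species, discarding reads that mapped to both, and 24.5% to 26.9% of the C. briggsae table's total stood in lines that name no gene and were left out. Of the FPKM columns 79 were used, and 13 columns of per-sample values that match no sample here were not used. Columns were matched to samples by name. Genes were placed on chromosomes by locus tag (19899) or symbol (5) through RefSeq annotation, and 507 mitochondrial or unmatched genes were left out of the tests.

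FPKM were divided by median-of-ratios scale factors over the libraries compared and tested on log2(FPKM + 0.1) with limma 3.58.1 in R 4.3.3 (moderated test with an intensity trend, two-sided) on the libraries of the groups compared, for genes with a mean above 1 FPKM. All 9 members passed this filter in every comparison. Fold changes are on that log2 scale and understate the change of low genes. Spike-in counts with a mean of at least 10 were tested with edgeR 4.0.16 (quasi-likelihood), with library sizes from C. briggsae counts, and DESeq2 1.42.0 was an alternative. P-values were adjusted by Benjamini-Hochberg over all genes tested, with a threshold of 0.05, and intervals are 95%. They measure only the spread between these libraries, and each library pools worms. The tests were checked on simulated data.

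Replicate numbers were taken to pair libraries where, over at least 3 pairs, every correlation of same-numbered deviations was above 0.1. This held for dpy-21 against N2 early embryos (0.165 to 0.221), dpy-27 RNAi against vector L3 (0.151 to 0.639) and set-4 against N2 L3 (0.273 to 0.702). The rule did not require the own number to be the best match. It was not for RNAi L3 replicate 3 (0.206) and set-4 L3 replicate 2 (0.273). The study's list of data sets names an N2 library beside each set-4 spike-in library, but their correlations of 0.021 to 0.081 did not meet this rule.

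All members are named. Of the other replication genes, up to 3 per direction with the largest called log2 ratio are named for the set-1 and N2 stage comparisons, and the 5 genes most correlated with the members' mean profile, of which 1 is not reported here. Members and lists were chosen with earlier results of these data known. Of 19 further licensing and firing genes looked for, 17 were found. Alternatives were other pseudocounts, no filter, no scaling, 1 fit over all groups, a replicate block, the identical library kept, and each library left out in turn.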

Additional observations from a re-analysis of the deposited data

Results flagged for a closer look

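A single library stood far from the other 3 of its group for 3 gene and group pairs. orc-2 was at 16.3 FPKM in dpy-27 RNAi L3 replicate 4, where the next highest library held 10.6. cdc-6 was at 23.2 FPKM in set-4 mixed embryo replicate 4, where the next lowest held 34.8. pcn-1 was at 1897 FPKM in set-4 mixed embryo replicate 1, where the next highest held 518. These are 3 of 81 gene and group pairs examined in 9 groups of 4 to 10 libraries, and chance alone singles out about 1 in 20 such pairs.

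The ratio of hermaphrodite to mixed sex worms in L3 larvae differed from that in early embryos for 8 genes in a test of the difference itself (limma, adjusted p over all genes). The L3 minus early embryo difference was -0.76 ± 0.16 for mcm-3, -0.52 ± 0.13 for mcm-5, -0.80 ± 0.15 for mcm-6, -0.79 ± 0.13 for mcm-7, -0.64 ± 0.16 for orc-2, -0.48 ± 0.12 for cdc-6, -0.84 ± 0.24 for cdt-1 and -1.08 ± 0.18 for pcn-1 on the log2 scale, with adjusted p-values from 0.00598 (mcm-7) to 0.0465 (cdt-1). The median difference over all genes was -0.11. Sex and strain cannot be told apart in either ratio, since hermaphrodites are N2 and mixed sex worms fog-2. Of 12620 genes 6.97% were called in this direction, and on FPKM as deposited only pcn-1 of the 9 members was.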

How the results depend on the processing

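No member's log2 ratio changed sign with a called value in any of 2376 refits, of which 2240 kept the call of the fit reported, 113 lost it and 23 gained it. The fall of all 9 genes between early and comma embryos held in N2 and fog-2 under every alternative run, and the set-1 count stayed at 0. The number of members called moved in these cases, and the cause was not tested. For N2 L1 against comma embryos it was 2, with 0 without the low filter and 4 in a fit over all groups. For fog-2 L1 against comma embryos it was 5, with 3 without the filter. For L3 against L1 it was 2 in each strain, with 0 in a fit over all groups in both and, in fog-2, 4 without scaling. For hermaphrodite against mixed sex early embryos it was 3, with 0 without scaling and 0 in a fit over all groups. For dpy-27 against N2 early embryos it was 9, with 3 in a fit over all groups. For the L3 minus early embryo difference between the sexes it was 8, with 1 without scaling. For the spike-in counts it was 7, with 2 when scaled by C. elegans counts and 6 with DESeq2.

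With 1 library left out in turn, the counts ran from 0 to 6 (N2 L1 against comma), 0 to 3 (N2 L3 against L1), 2 to 4 (fog-2 L1 against comma), 0 to 2 (fog-2 L3 against L1), 0 to 6 (sexes, early embryo), 0 to 1 (sexes, L3, where it was 1 without fog-2 replicate 1), 6 to 8 (dpy-27 early embryo), 0 to 1 (dpy-21 early embryo, 1 without dpy-21 replicate 3) and 1 to 7 (spike-in). Where this left a group with 1 library, that library is assumed to vary like the other group.

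With a replicate block the counts were 4 for N2 L1 against comma embryos and 0 for L3 against L1 in N2 and in fog-2, where the samples share only a number, and 7 for the spike-in libraries, whose pairing is listed by the study but not visible in the correlations. The block changed no other count by over 1.5 times, and the 3 comparisons whose numbers were taken to pair the libraries stayed at 0. In the set-1 groups every library correlated best with its own number (0.095 to 0.394), and the block left the count at 0. A block could not be fitted for the sexes in L1 larvae, whose remaining libraries share too few numbers, and was not run for the differences between stages. Leaving out both libraries at odds with their labels, an alternative chosen after seeing the data, left dpy-21 against set-4 mixed embryos at 0.

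Scaling moved the share of calls that were higher by over 10 points, from FPKM as deposited to the scaled values reported, in 7 comparisons. The share was 54% with scaling and 38.1% without for N2 L3 against L1, 61.0% and 39.3% for fog-2 L3 against L1, 43.8% and 23% for the sexes in early embryos, 54.6% and 66.2% for dpy-27 early embryos, 46.7% and 20.8% for dpy-21 early embryos, 46.2% and 73.3% for the dpy-21 difference between stages, and 40.9% and 79.0% for that between the sexes.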
